A study of Mus musculus with 6 samples.

Results

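The genes of the lysosome, its acid hydrolases, membrane proteins, sorting enzyme, transcription factors and proton pump, were examined by RNA-seq in control and *Uba6*-knockout 4T1 cells. The 50 genes were taken from a list of lysosomal names, and all 50 were found among the 19255 genes of the expression table. That list was chosen with earlier results of these data known, so setting it against all genes is not an independent comparison. The list comprised 10 proteases, 9 glycosidases and sulfatases, 7 lipid enzymes with their cofactors, 7 membrane proteins, the sorting enzyme gene *Gnptab*, 3 transcription factor genes and 13 subunits of the vacuolar ATPase. 4T1 is a mammary carcinoma line of the mouse. Its libraries comprised 3 from the group with the genotype WT (non-targeting guide, sgCtrl) and 3 from the group with the genotype UBA6 knockout (sgUba6). The knockout cells came from Cas9-expressing 4T1 cells that received a lentiviral guide RNA and were selected with puromycin, and both groups were grown in the same serum-containing medium. UBA6 is an E1 enzyme that activates ubiquitin and the ubiquitin-like protein FAT10. Whether the knockout cells were 1 clone or a pool, and whether the 3 libraries of a group came from separate cultures, is not stated in the methods or the labels. A reporting summary describes the study's results in general as biological repeats, and does not tell how the libraries of these groups were made. The p-values therefore measure the spread between these libraries, which may be technical.

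Lysosomes are acidic organelles in which proteins, glycans and lipids are broken down. Newly made hydrolases receive a mannose 6-phosphate tag in the Golgi and are carried to the lysosome, where many are cut into their active forms at low pH. The acid is supplied by the V-ATPase, in which the cytosolic V1 sector hydrolyses ATP and the membrane V0 sector moves protons. Many of these genes share promoter elements bound by the MiT/TFE transcription factors TFEB, TFE3 and MITF, which are held in the cytosol when mTORC1 is active at the lysosome. In tumour cells, lysosomal proteases and lipid handling are known for their part in turnover, secretion and nutrient supply.

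The promoter element linked to lysosomal genes is the E-box CACGTG with its flanking bases, and it is shown here because it is the element that the MiT/TFE factors are known to bind. Promoters of 300 bases, from 250 before to 50 after each start site, were taken from RefSeq (GRCm38.p6), and 41 of the 50 genes had an entry, with 52 promoters. CACGTG was present in 14 of the 52, or 26.9%, against 7.15% of all 32851 promoters of the same length. The longer TCACGTG, which contains it, was in 25.0% against 3.77%. The palindrome TCACGTGA, which contains both, was in 15.4% against 0.974%. The related TCATGTG was in 15.4% of the promoters of these genes and 3.77% of all. Both strands were searched, and counted per gene CACGTG was present in 34.1% of the 41 genes, in 12.1% of the 9080 tested genes with an entry and in 8.09% of all 27025 genes. Counted in the same way, TCACGTG was in 31.7% of the 41 genes and 7.18% of the tested genes, and TCACGTGA in 19.5% and 2.36%. TCATGTG was in 19.5% and 2.5%. A match describes the letters in the window only. The 30 bases around each TCACGTGA, with those 8 letters in capitals, were as follows in GRCm38.p6, read in the sense of the gene.
Ctsd chr7:142387908-142387937 (-): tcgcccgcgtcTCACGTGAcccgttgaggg
Ctsa chr2:164833749-164833778 (+): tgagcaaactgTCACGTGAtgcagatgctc
Ctsa chr2:164833766-164833795 (+): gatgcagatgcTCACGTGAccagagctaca
Gla chrX:134601215-134601244 (-): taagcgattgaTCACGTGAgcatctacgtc
Gla chrX:134601182-134601211 (-): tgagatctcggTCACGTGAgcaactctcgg
Mcoln1 chr8:3500462-3500491 (+): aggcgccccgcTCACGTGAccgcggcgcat
Cln3 chr7:126583340-126583369 (-): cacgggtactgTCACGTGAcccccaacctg
Atp6v0d1 chr8:105566050-105566079 (-): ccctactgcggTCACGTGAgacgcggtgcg
Atp6v0e chr17:26676387-26676416 (+): tagcgcgccgaTCACGTGAgcctctgttga
Atp6v1a chr16:44139373-44139402 (-): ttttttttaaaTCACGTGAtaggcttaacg

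The first base of the palindrome lay between positions -228 and 4, counted from the start site at 0. Of these 8 genes, 4 were higher in sgUba6 cells (*Ctsd*, *Ctsa*, *Atp6v0d1* and *Atp6v0e*), 0 were lower and 4 did not pass the test, which is described below. Of all genes tested, 47.4% were called in either direction and 24.7% were higher. The calls of *Ctsa* and *Atp6v0d1* were lost under 7 and 4 of the 14 alternatives. Among the called genes with a log2 fold change of at least 0.5 in size, *Tpp1* had TCATGTG and *Atp6v1c1* had no promoter entry. *Atp6v0a1* and *Atp6v1d* had an entry with none of the strings. Whether the element went with the size of the change was not tested. The 3 genes with a called change of at least 2-fold were *Manba*, *Npc2* and *Cd68*, and none of the 4 letter strings was in the 300 bases of their promoters. The bases just upstream of their start sites are shown with each CpG in capitals, from the 120 bases before the RefSeq start, without the bases that the file's coordinates place inside the gene.
Manba chr3:135485491-135485610 (+): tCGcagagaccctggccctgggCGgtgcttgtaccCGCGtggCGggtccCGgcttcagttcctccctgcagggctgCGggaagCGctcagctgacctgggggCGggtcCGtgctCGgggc
Npc2 chr12:84773153-84773232 (-): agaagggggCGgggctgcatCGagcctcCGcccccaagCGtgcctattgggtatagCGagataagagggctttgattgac
Cd68 chr11:69666171-69666290 (-): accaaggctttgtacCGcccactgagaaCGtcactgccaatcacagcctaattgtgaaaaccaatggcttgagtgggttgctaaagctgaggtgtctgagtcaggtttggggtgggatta

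The *Manba* stretch held 11 CpG in 120 bases, the *Cd68* stretch 2 in 120 and the *Npc2* stretch 5 in 80, where the median over the 120 bases of all promoters was 3. Among all 14 genes with CACGTG, 6 were higher, 1 was lower and 7 did not pass, where 47.4% of all genes tested were called. Their median log2 fold change was 0.15. Among the 27 without CACGTG, 14 were higher, 6 lower and 5 did not pass, 2 were not tested, and the median was 0.25.

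The values are FPKM, that is fragments scaled by transcript length and by the mapped fragments of the library, so levels of different genes are per length. Read depth is not known from such values. FPKM summed to between 352535 and 362762 per library, and log2 values correlated across genes at 0.991 to 0.992 within groups and 0.961 to 0.963 between groups. *Uba6* itself was at 16.4, 16.4 and 17.02 FPKM in sgCtrl and at 10.9, 12.1 and 12.0 FPKM in sgUba6 libraries. The mean of its mRNA was thus 1.42-fold lower in the knockout cells, in which it remained expressed, and the protein is not measured in these data. The paper judged the efficiency of the knockout by western blot of UBA6 protein. The defining epithelial markers were *Krt8*, *Krt18* and *Epcam*. *Krt8* and *Krt18* were between 551 and 676 FPKM in every library, whereas *Epcam* had a mean of 123.6 FPKM in sgCtrl and 229.6 FPKM in sgUba6. Of all 6 epithelial markers, *Krt8* and *Krt14* were called lower (log2 fold changes of -0.22 and -0.29) and *Epcam* higher (0.90), while *Krt18*, *Krt19* and *Cdh1* did not pass the test. The leukocyte marker *Ptprc* was between 0 and 0.0195 FPKM. A gene was tested if 3 or more of the 6 libraries held 0.5 FPKM or more. The test was limma on log2(FPKM + 0.5), and a gene was called at a Benjamini-Hochberg adjusted p under 0.05 over all 12190 genes tested. The log2 fold changes include the added 0.5 and understate the change of low genes. An exact permutation test of 3 libraries against 3 cannot go below 0.1, so all calls rest on the model.

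Lysosomal mRNAs went in both directions in sgUba6 cells, more often up than down and mostly by small amounts. Of the 48 genes that passed the filter on low values, 20 were higher in sgUba6 cells, 10 were lower and 18 did not pass the test. Of all genes tested, 47.4% were called in either direction, against 30 of 48 here (62.5%). Since the list was chosen with earlier results of these data known, its difference from all genes was not tested. Higher calls made up 24.7% and lower calls 22.7% of all genes tested. The FPKM of the groups did not overlap for 32 of the 48 genes, 22 of them higher and 10 lower in sgUba6, where 57.6% of all genes tested were so separated. Called changes with a log2 fold change of at least 0.5 in size were found for 7 of the 48 genes, against 18.2% of all genes. The median log2 fold change was 0.15, against 0.01 over all genes, and the median size without sign was 0.22 against 0.23. These 48 genes were more abundant than the rest, with a median of 21 FPKM against 11. The share of genes called rose with level, from 39.9% of 3534 genes under 5 FPKM to 46.4% of 4795 genes at 5 to 20 FPKM and 55.7% of 3861 genes at 20 FPKM or more. Within these bands, 2 of 5, 13 of 18 and 15 of 25 lysosomal genes were called.

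**Figure D1:**
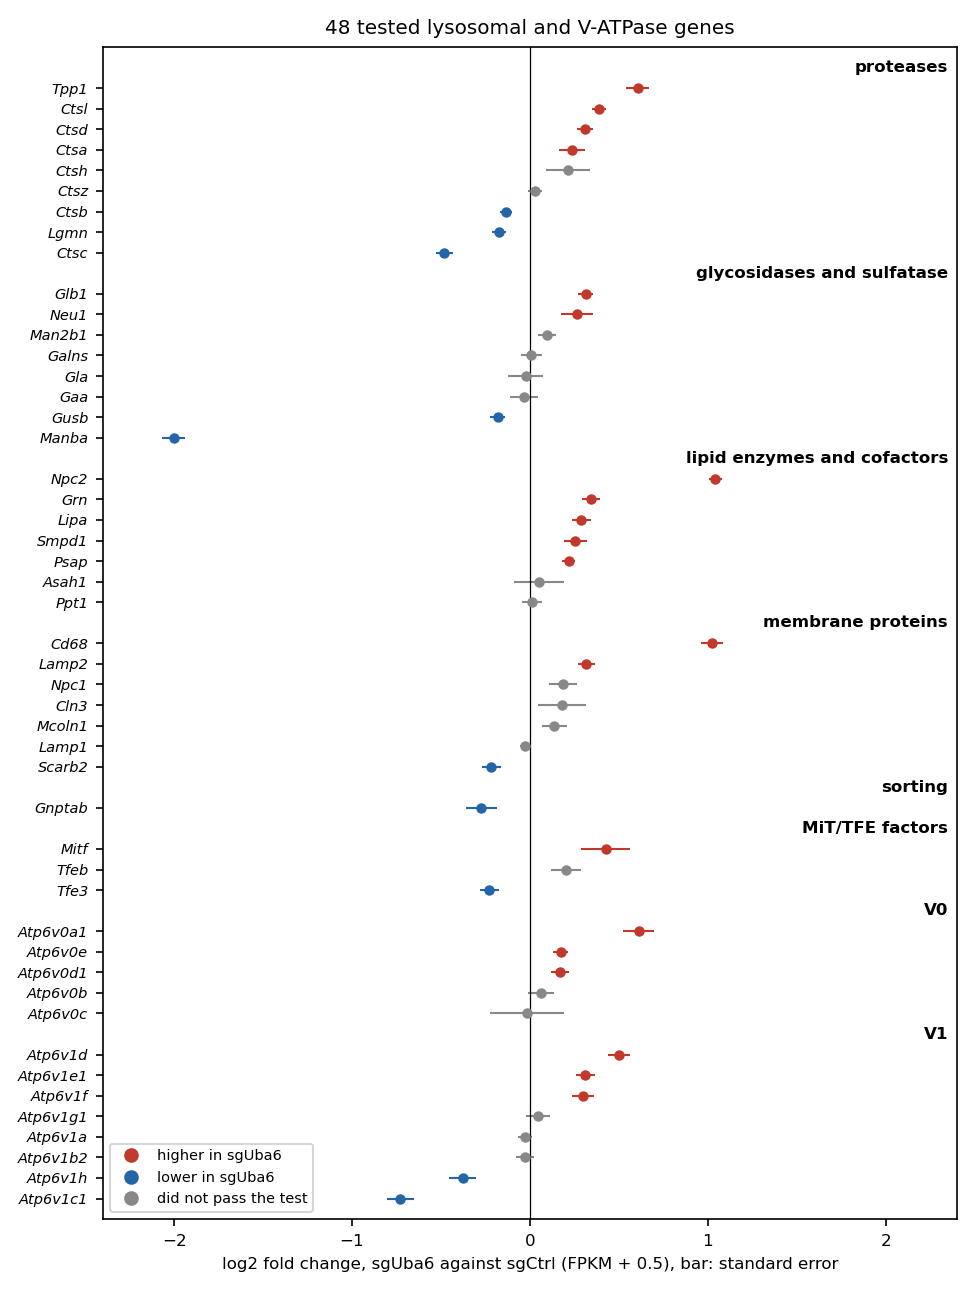
Log2 fold change of sgUba6 against sgCtrl on the log2(FPKM + 0.5) scale for the 48 tested lysosomal genes, grouped by role, with points for the fitted value and bars for the standard error. Red points are the 20 called higher, blue points the 10 called lower and grey points the 18 that did not pass; Manba stands apart at -2.00, and Npc2 and Cd68 lie near 1.

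**Figure D2:**
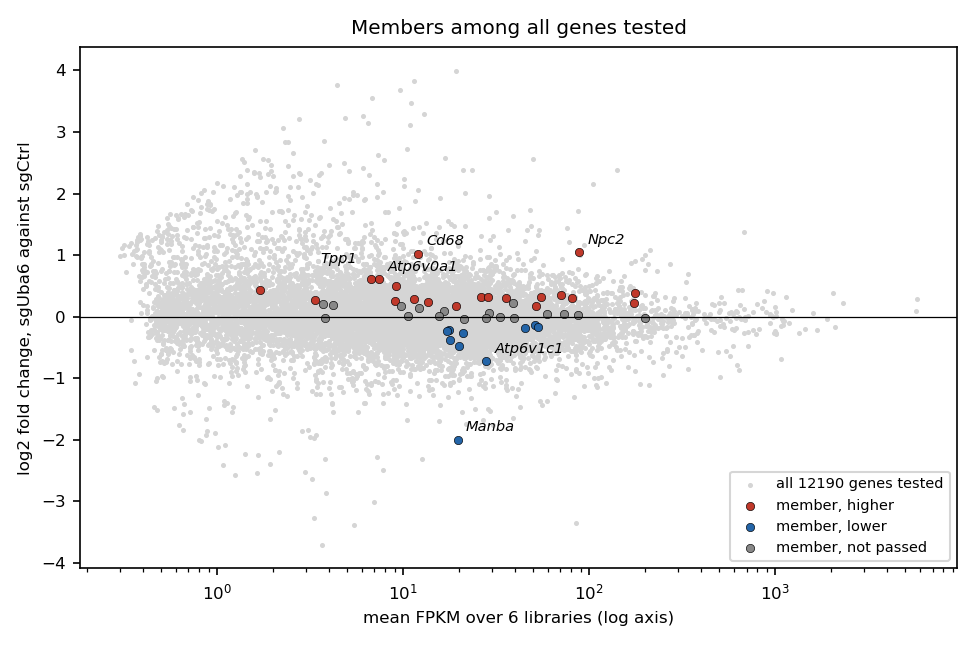
Log2 fold change of sgUba6 against sgCtrl plotted against mean FPKM over the 6 libraries (log axis) for all 12190 genes tested, in light grey, with the 48 lysosomal genes in colour. Most lysosomal genes lie in the upper part of the range of levels, close to 0 in fold change, and the named genes have a called log2 fold change over 0.55 in size.

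Among the proteases, 4 of 9 tested genes were higher, 3 were lower and 2 did not pass. The share called was 77.8%, against 47.4% of all genes tested. It was 46.4% for all genes at 5 to 20 FPKM and 55.7% for those at 20 FPKM or more, and the proteases spanned both. The roles were not tested as groups. The gene with the largest change was *Tpp1*, whose product trims tripeptides from the ends of proteins. *Tpp1* was at 5.44, 5.24 and 4.88 FPKM in sgCtrl and 8.15, 7.999 and 8.28 FPKM in sgUba6 libraries. Every sgUba6 library lay above every sgCtrl library, and the mean rose from 5.19 ± 0.283 to 8.14 ± 0.143 FPKM (mean ± SD, n = 3 per group). The log2 fold change was 0.61 (standard error, SE, of 0.063, limma adjusted p = 0.000357).

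The most abundant protease mRNA was *Ctsl*, the endopeptidase cathepsin L. It was at 149, 148 and 158 FPKM in sgCtrl and 204, 200 and 193 FPKM in sgUba6 libraries. The groups did not overlap, and the log2 fold change was 0.39 (SE 0.039, limma adjusted p = 0.000302). *Ctsd*, the aspartic protease cathepsin D, rose from 72.5 ± 3.19 to 89.9 ± 2.74 FPKM (mean ± SD, n = 3 per group), a log2 fold change of 0.31. *Ctsa*, a carboxypeptidase that also protects neuraminidase and β-galactosidase in a complex, rose from 12.5 ± 1.15 to 14.7 ± 0.375 FPKM (mean ± SD, n = 3 per group). For *Ctsa* the adjusted p from limma was 0.0363, and it was 0.0711 without sgCtrl 2, 0.0701 without sgCtrl 3, 0.0753 without sgUba6 1, 0.101 without sgUba6 2 and 0.0755 without sgUba6 3. Over the 14 alternatives it ran from 0.0205 to 0.101, so the *Ctsa* call depended on nearly every library. Reads of 3 of these genes could also have come from a neighbour, and whether the counting used strand is not known, since the sources differ on the library kit. For *Ctsd*, 34.4% of the exon bases are shared with the gene model *Gm49369* on the same strand. *Ctsl* shares 26.8% with *Gm47123*, which is not in the expression table, on the opposite strand. It also shares 6.1% with the processed pseudogene *Gm49230* on the same strand. *Ctsa* shares 10.5% with *Pltp* and 6.9% with *Neurl2*, both on the opposite strand.

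The proteases that fell were *Ctsc*, *Lgmn* and *Ctsb*. *Ctsc*, the dipeptidyl peptidase that activates the serine proteases of leukocyte granules, was at 23.5, 23.6 and 22.6 FPKM in sgCtrl and 15.9, 16.6 and 16.95 FPKM in sgUba6 libraries. There was no overlap between the groups, with a log2 fold change of -0.48 (SE 0.047, limma adjusted p = 0.000257). *Lgmn*, the asparaginyl endopeptidase legumain, which processes cathepsins, went from 56.1 ± 1.198 to 49.6 ± 1.37 FPKM (mean ± SD, n = 3 per group). *Ctsb*, cathepsin B, changed least of the called genes, with a log2 fold change of -0.14 (adjusted p = 0.0178 from limma). Its adjusted p was 0.0572 without sgCtrl 1, 0.0567 without sgUba6 2 and 0.0601 without sgUba6 3, and between 0.0128 and 0.0887 over all alternatives, the highest being under quantile normalization, where the log2 fold change was -0.08. The end of *Fdft1* on the other strand shares 12.8% of the *Ctsb* exon bases. *Ctsh*, an aminopeptidase, was at 32.3, 41.7 and 33.8 FPKM in sgCtrl and 36.04, 46.9 and 42.2 FPKM in sgUba6 libraries, with overlapping groups and an adjusted p of 0.200 from limma. *Ctsz*, a carboxypeptidase, was at 86.5 ± 2.72 and 88.3 ± 2.58 FPKM (mean ± SD, n = 3 per group), and the 95% interval of its log2 fold change ran from -0.07 to 0.12. *Ctss*, the cathepsin of antigen-presenting cells, was listed at 0.0819 FPKM in sgCtrl 1 and at 0 in the other libraries, and was not tested. The summed FPKM of the 10 proteases was 497 ± 4.01 in sgCtrl and 556 ± 9.94 in sgUba6 libraries (mean ± SD, n = 3 per group).

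Glycosidase genes held the largest change of the list. *Manba*, β-mannosidase, which removes the last mannose from N-linked glycans during their breakdown, was at 32.4, 32.7 and 30.02 FPKM in sgCtrl and 7.70, 6.98 and 7.96 FPKM in sgUba6 libraries. No other gene of the list fell so far, and the lowest sgCtrl library was at 30.02 FPKM against 7.96 FPKM in the highest sgUba6 library. The mean fell from 31.7 ± 1.48 to 7.55 ± 0.506 FPKM (mean ± SD, n = 3 per group), 4.20-fold lower. The log2 fold change was -2.00 (SE 0.065, limma adjusted p = 6.04e-06). The gene spans chr3:135485611-135571404 in GRCm38 and is read from the plus strand.

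Of the other glycosidases and the sulfatase, 2 rose and 1 fell. With *Manba*, 4 of the 8 tested genes of this role were called, against 47.4% of all genes tested. *Glb1*, the β-galactosidase that acts on gangliosides and keratan sulfate, rose from 23.4 ± 0.163 to 29.2 ± 0.755 FPKM (mean ± SD, n = 3 per group), a log2 fold change of 0.31. *Neu1*, the sialidase, was at 2.87, 3.29 and 2.88 FPKM in sgCtrl and 3.73, 3.99 and 3.44 FPKM in sgUba6 libraries (adjusted p = 0.0443 from limma). The groups of *Neu1* did not overlap, but its adjusted p was 0.116 without sgCtrl 1, 0.112 without sgCtrl 3, 0.102 without sgUba6 1, 0.133 without sgUba6 2 and 0.0502 without sgUba6 3. It ranged from 0.0306 to 0.209 over the alternatives, with the highest under quantile normalization, where the log2 fold change was 0.15 instead of 0.27. *Gusb*, β-glucuronidase and the most abundant mRNA of this role, was at 49.98, 48.3 and 46.2 FPKM in sgCtrl and 42.7, 42.7 and 41.7 FPKM in sgUba6 libraries. All 3 sgUba6 libraries were lower, with a mean of 42.4 ± 0.570 against 48.2 ± 1.92 FPKM (mean ± SD, n = 3 per group) and a log2 fold change of -0.18 (SE 0.042, limma adjusted p = 0.0114).

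The remaining 4 tested genes of this role did not pass the test and had overlapping groups. *Gaa*, the α-glucosidase that breaks down glycogen, had a 95% interval of the log2 fold change from -0.22 to 0.16. For *Gla*, the α-galactosidase of globotriaosylceramide, it ran from -0.26 to 0.21. *Galns*, the sulfatase of keratan sulfate, was at 10.5 ± 0.160 and 10.6 ± 0.625 FPKM (mean ± SD, n = 3 per group). For *Man2b1*, the α-mannosidase that acts before MANBA on the same glycans, the means were 15.98 and 17.1 FPKM and the interval ran from -0.03 to 0.22. *Hexa*, the α-subunit of β-hexosaminidase, was at 0.155, 0.398 and 0.226 FPKM in sgCtrl and listed at 0 in all 3 sgUba6 libraries. It was under the filter in every library and was not tested. The summed FPKM of the 9 genes was 158 ± 4.83 in sgCtrl and 135 ± 1.58 in sgUba6 libraries (mean ± SD, n = 3 per group). This difference was that of *Manba*, since the sum of the other 8 genes, computed after these values were seen, was 127 ± 3.40 and 128 ± 1.196 FPKM with overlapping groups.

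Among the lipid enzymes and their cofactors, 5 of 7 genes were higher, 0 were lower and 2 did not pass. The share called was 71.4%, against 47.4% of all genes tested. Genes at 5 to 20 FPKM were called in 46.4% and those at 20 FPKM or more in 55.7%, and this role spanned both. *Npc2*, which hands cholesterol from the lysosome lumen to NPC1, was at 58.6, 57.6 and 56.7 FPKM in sgCtrl and 121, 115 and 122 FPKM in sgUba6 libraries. Each sgUba6 library was far above each sgCtrl library, and the mean rose 2.07-fold from 57.6 ± 0.951 to 119.3 ± 3.94 FPKM (mean ± SD, n = 3 per group). The log2 fold change was 1.04 (SE 0.038, limma adjusted p = 7.16e-06). The gene spans chr12:84754562-84773152 in GRCm38 and is read from the minus strand.

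*Psap*, the precursor of the saposins that help hydrolases reach sphingolipids, was the most abundant mRNA of this role. It was at 158, 158 and 164 FPKM in sgCtrl and 189, 180 and 189 FPKM in sgUba6 libraries. Both groups were separate, with means of 160 ± 3.602 and 186 ± 5.28 FPKM (mean ± SD, n = 3 per group) and a log2 fold change of 0.22 (SE 0.036, limma adjusted p = 0.00254). *Grn*, progranulin, a secreted precursor that is cut into granulins in lysosomes, had a log2 fold change of 0.34. *Lipa*, the acid lipase of cholesteryl esters and triglycerides, rose from 10.3 ± 0.0304 to 12.7 ± 0.645 FPKM (mean ± SD, n = 3 per group). *Smpd1*, acid sphingomyelinase, had a log2 fold change of 0.25, with sgCtrl libraries at 8.03, 8.65 and 7.89 FPKM and sgUba6 libraries at 10.4, 9.68 and 9.52 FPKM. The 5 higher genes were thus the enzyme genes *Lipa* and *Smpd1*, and *Psap*, *Npc2* and *Grn*, whose products are not enzymes.

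*Asah1*, acid ceramidase, was at 57.1, 59.8 and 57.1 FPKM in sgCtrl and 67.9, 46.7 and 68.1 FPKM in sgUba6 libraries. The library sgUba6 2 lay below and the other two above every sgCtrl library, and the gene did not pass the test (limma adjusted p = 0.803, log2 fold change 0.05). Without sgUba6 2 it was called higher, with a log2 fold change of 0.23 and an adjusted p of 0.00951 from limma, and over the alternatives the adjusted p ran from 0.00951 to 0.876. *Ppt1*, which removes palmitate from proteins, was at 15.4 ± 0.565 and 15.6 ± 0.823 FPKM (mean ± SD, n = 3 per group), with an interval from -0.12 to 0.15 on the log2 scale. The summed FPKM of the 7 lipid genes was 372 ± 3.48 in sgCtrl and 483 ± 24.7 in sgUba6 libraries (mean ± SD, n = 3 per group). This was the largest relative rise among the roles, and much of it was the rise of *Npc2* from 57.6 to 119.3 FPKM.

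**Figure D3:**
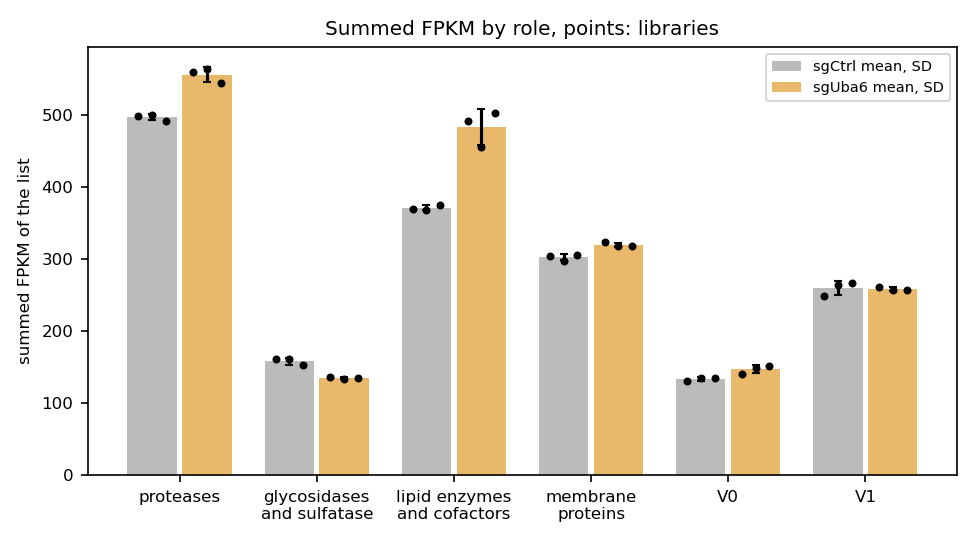
Summed FPKM of the genes of each role, as bars for the mean of 3 libraries per group with the SD as error bars and points for the libraries. The lipid enzymes and cofactors rose from 372 to 483 FPKM, of which Npc2 alone went from 57.6 to 119.3 FPKM. The glycosidases went from 158 to 135 FPKM (127 and 128 FPKM without Manba), and V1 was at 260 and 258 FPKM.

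Lysosomal membrane proteins moved in both directions, with 2 of 7 higher, 1 lower and 4 that did not pass. The share called was 42.9%, against 47.4% of all genes tested. *Cd68*, a heavily glycosylated membrane protein used as a macrophage marker, was at 8.18, 7.33 and 7.67 FPKM in sgCtrl and 17.04, 15.7 and 15.9 FPKM in sgUba6 libraries. The groups were far apart, and the log2 fold change was 1.02 (SE 0.063, limma adjusted p = 3.83e-05). The gene spans chr11:69664213-69666153 in GRCm38 and is read from the minus strand. Other leukocyte markers were listed beside it. Of 13 names, 7 were in the table, all 7 with a value above 0 in some library, and 2 passed the filter, both higher in sgUba6 (*Csf1r* with a log2 fold change of 1.09 and *Cd14* with 0.32). The summed FPKM of the leukocyte list was 11.1 to 12.3 in sgCtrl and 14.5 to 17.5 in sgUba6 libraries, most of it *Cd14*. The defining marker *Ptprc* was at 0 to 0.0195 FPKM in all libraries. The other 4 untested markers were each under 0.5 FPKM in every library. Of these, *Aif1* was at 0.0875, 0.0300 and 0 FPKM in sgCtrl and 0.459, 0.273 and 0.0915 FPKM in sgUba6 libraries, without overlap. *Mrc1* was at 0 in all sgCtrl libraries and at 0, 0.0188 and 0.0212 FPKM in sgUba6, and *Lyz2* and *Fcer1g* had values of 0 in both groups and overlapped. In such bulk samples a different share of cells and a different amount of RNA per cell cannot be told apart.

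The lysosome-associated membrane proteins, which coat the inner face of the membrane, differed from each other. *Lamp1*, the most abundant mRNA of the whole list in sgCtrl cells, was at 203, 199 and 205 FPKM in sgCtrl and 201, 200 and 194 FPKM in sgUba6 libraries. Its groups overlapped, and the 95% interval of the log2 fold change ran from -0.10 to 0.05 (adjusted p = 0.539 from limma). *Lamp2*, which also serves chaperone-mediated autophagy, rose from 49.2 ± 1.61 to 61.4 ± 2.68 FPKM (mean ± SD, n = 3 per group), a log2 fold change of 0.32. *Scarb2*, the receptor that brings β-glucocerebrosidase to lysosomes, was at 19.9, 19.2 and 18.1 FPKM in sgCtrl and 16.6, 15.9 and 16.4 FPKM in sgUba6 libraries, a log2 fold change of -0.22 (adjusted p = 0.0129 from limma).

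The transporters and channels of the list did not pass the test. *Npc1*, the membrane partner of NPC2, was at 4.02, 3.57 and 4.05 FPKM in sgCtrl and 4.52, 4.26 and 4.66 FPKM in sgUba6 libraries. These groups did not overlap, but the adjusted p from limma was 0.0882 with a log2 fold change of 0.19, against 1.04 for *Npc2*. The log2 fold change was 0.14 for *Mcoln1*, the calcium channel TRPML1, and 0.18 for *Cln3*, a membrane protein lost in juvenile Batten disease, both with overlapping groups. Without single libraries these values fell to 0.09 for *Mcoln1* (without sgCtrl 2), and to 0.07 (without sgCtrl 2) and 0.06 (without sgUba6 1) for *Cln3*. *Gnptab*, the phosphotransferase that starts the mannose 6-phosphate tag, was at 23.1, 22.6 and 22.6 FPKM in sgCtrl and 19.8, 20.6 and 16.3 FPKM in sgUba6 libraries. Its groups did not overlap, with a log2 fold change of -0.27 (SE 0.087, limma adjusted p = 0.0384). The adjusted p of *Gnptab* was 0.0943 without sgCtrl 1, 0.0812 without sgCtrl 2, 0.0811 without sgCtrl 3 and 0.0542 without sgUba6 1, and 0.0266 to 0.0943 over the alternatives. Without sgUba6 3, the lowest library, the log2 fold change was -0.17, still called (adjusted p = 0.0414 from limma).

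The 3 MiT/TFE factor genes showed 3 different outcomes. *Tfeb* was at 3.47, 3.56 and 3.20 FPKM in sgCtrl and 4.23, 3.64 and 4.16 FPKM in sgUba6 libraries. No overlap was seen between the groups, but *Tfeb* did not pass the test (limma adjusted p = 0.0864, with a log2 fold change of 0.21 and an SE of 0.084). *Tfe3* was at 18.2, 18.9 and 18.8 FPKM in sgCtrl and 16.7, 15.7 and 15.1 FPKM in sgUba6 libraries. All sgUba6 libraries were lower, with a log2 fold change of -0.23 (SE 0.052, limma adjusted p = 0.0108). *Mitf* was at 1.21, 1.35 and 1.53 FPKM in sgCtrl and 2.27, 1.59 and 2.19 FPKM in sgUba6 libraries, a log2 fold change of 0.43 (SE 0.138, limma adjusted p = 0.0403). The highest sgCtrl library of *Mitf* lay just under the lowest sgUba6 library, and its adjusted p was 0.113 without sgCtrl 1, 0.0907 without sgCtrl 2, 0.123 without sgUba6 1 and 0.122 without sgUba6 3. Over the alternatives it ran from 0.0142 to 0.186, the latter under quantile normalization with a log2 fold change of 0.25. *Tfe3* was the most abundant of the 3 in both groups, per length of transcript. These are mRNA levels, and where in the cell the factors were was not measured.

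Genes that act on these factors at the lysosome were followed from a list of 15 names, of which 13 were in the table and 12 were tested. There were 3 higher and 4 lower, against a background of 47.4% called, and none reached a log2 fold change of 1 in size. These 7 are named after their values were seen, beside the other members of their complexes. *Mtor*, the kinase of mTORC1, was higher with a log2 fold change of 0.51, whereas *Rptor*, its mTORC1 partner, was at -0.06 and did not pass the test. *Flcn* and *Fnip1*, which together form a GTPase activator of the Rag proteins, were higher with 0.37 and 0.29, whereas *Fnip2*, the alternative partner, was at -0.14 and did not pass, although its sgUba6 libraries all lay below the sgCtrl libraries. *Rraga* and *Rragc* did not pass the test. The lower genes were 4 of the 5 Ragulator subunits that anchor Rag GTPases to the lysosome. Their log2 fold changes were -0.38 for *Lamtor2*, -0.49 for *Lamtor3*, -0.49 for *Lamtor4* and -0.47 for *Lamtor5*, while *Lamtor1* was at 25.6, 24.2 and 23.1 FPKM in sgCtrl and 28.0, 24.8 and 20.5 FPKM in sgUba6 libraries.

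V-ATPase subunit mRNAs did not move as a block. Of the 13 subunits, 6 were higher, 2 were lower and 5 did not pass, and their log2 fold changes had a median of 0.06. The share called was 61.5%, against 47.4% of all genes tested. Among all genes it was 46.4% at 5 to 20 FPKM and 55.7% at 20 FPKM or more, and the subunits spanned both. Of the 35 other tested genes of the list, 14 were higher and 8 lower, with a median of 0.18. In the V0 sector, 3 of 5 genes were higher and 0 lower. *Atp6v0a1*, an isoform of the subunit that sets where the pump sits and lines the proton path, was at 5.13, 6.10 and 6.15 FPKM in sgCtrl and 9.63, 8.58 and 9.07 FPKM in sgUba6 libraries. The groups did not overlap, and the mean went from 5.79 ± 0.576 to 9.10 ± 0.526 FPKM (mean ± SD, n = 3 per group). The log2 fold change was 0.61 (SE 0.087, limma adjusted p = 0.00135). The paralogous a-subunit gene *Tcirg1*, more abundant in these cells, was at 43.2, 37.3 and 40.5 FPKM in sgCtrl and 43.0, 41.5 and 45.7 FPKM in sgUba6 libraries and did not pass the test.

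The most abundant V0 mRNA was *Atp6v0e*, a small membrane subunit. It was at 48.9, 48.2 and 47.7 FPKM in sgCtrl and 55.1, 56.3 and 52.0 FPKM in sgUba6 libraries. Values of the groups were separate, with a log2 fold change of 0.17 (SE 0.042, limma adjusted p = 0.0140). *Atp6v0d1*, which links the ring to the central stalk, also had a log2 fold change of 0.17, with means of 18.0 ± 0.289 and 20.4 ± 0.874 FPKM (mean ± SD, n = 3 per group) and an adjusted p of 0.0267 from limma. That adjusted p was 0.0732 without sgCtrl 2, 0.0649 without sgCtrl 3, 0.0814 without sgUba6 1 and 0.0745 without sgUba6 3, and 0.0170 to 0.0814 over the alternatives. The ring subunits did not pass the test. *Atp6v0b* was at 28.3 ± 1.85 and 29.6 ± 2.24 FPKM (mean ± SD, n = 3 per group). *Atp6v0c*, the main proteolipid of the ring, was at 28.2, 33.7 and 36.7 FPKM in sgCtrl and 23.7, 33.4 and 42.8 FPKM in sgUba6 libraries, the widest spread of the pump genes. *Atp6v0c* shares 465 bases at 99.8% identity with the processed pseudogene *Atp6v0c-ps2*, so reads of the 2 may have been split, and its value is uncertain.

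In the V1 sector, 3 of 8 genes were higher, 2 lower and 3 did not pass, where 47.4% of all genes tested were called. *Atp6v1c1*, the subunit that joins the outer stalks and takes part in assembly of the pump, fell most. It was at 33.2, 32.7 and 38.7 FPKM in sgCtrl and 20.4, 21.9 and 20.2 FPKM in sgUba6 libraries. All sgUba6 libraries were lower, and the mean went from 34.9 ± 3.33 to 20.8 ± 0.912 FPKM (mean ± SD, n = 3 per group), 1.68-fold lower, with a log2 fold change of -0.73 (SE 0.074, limma adjusted p = 0.000316). The paralogous gene *Atp6v1c2* was at or under 0.290 FPKM in every library and was not tested. *Atp6v1h*, a regulatory subunit, fell by 0.38 on the log2 scale, from 20.3 ± 1.46 to 15.5 ± 1.199 FPKM (mean ± SD, n = 3 per group; limma adjusted p = 0.00622).

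*Atp6v1d*, a subunit of the central rotor, was at 7.22, 7.31 and 7.91 FPKM in sgCtrl and 11.1, 10.5 and 10.7 FPKM in sgUba6 libraries. The groups did not overlap, with means of 7.48 ± 0.377 and 10.8 ± 0.317 FPKM (mean ± SD, n = 3 per group) and a log2 fold change of 0.50 (SE 0.060, limma adjusted p = 0.000635). *Atp6v1f*, also of the rotor, rose from 31.9 ± 1.87 to 39.4 ± 2.28 FPKM (mean ± SD, n = 3 per group), a log2 fold change of 0.30. It shares 360 bases at 97.5% identity with a processed pseudogene. *Atp6v1e1*, of the outer stalk, had a log2 fold change of 0.31.

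The catalytic core did not pass the test. *Atp6v1a*, which carries the ATP site, was at 28.0 ± 0.784 and 27.4 ± 0.117 FPKM (mean ± SD, n = 3 per group), with a 95% interval of the log2 fold change from -0.13 to 0.07. For its partner *Atp6v1b2* the interval ran from -0.15 to 0.09. *Atp6v1g1*, of the outer stalk and the most abundant pump mRNA, was at 65.5, 77.5 and 72.2 FPKM in sgCtrl and 75.3, 70.7 and 75.7 FPKM in sgUba6 libraries. Its groups overlapped (limma adjusted p = 0.608, log2 fold change 0.05), and it shares 357 bases at 99.4% identity with the processed pseudogene *Gm13453*. Summed FPKM was 133 ± 2.93 and 147 ± 5.37 for V0 and 260 ± 9.91 and 258 ± 2.75 for V1 (mean ± SD, n = 3 per group, sgCtrl first).

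**Figure D4:**
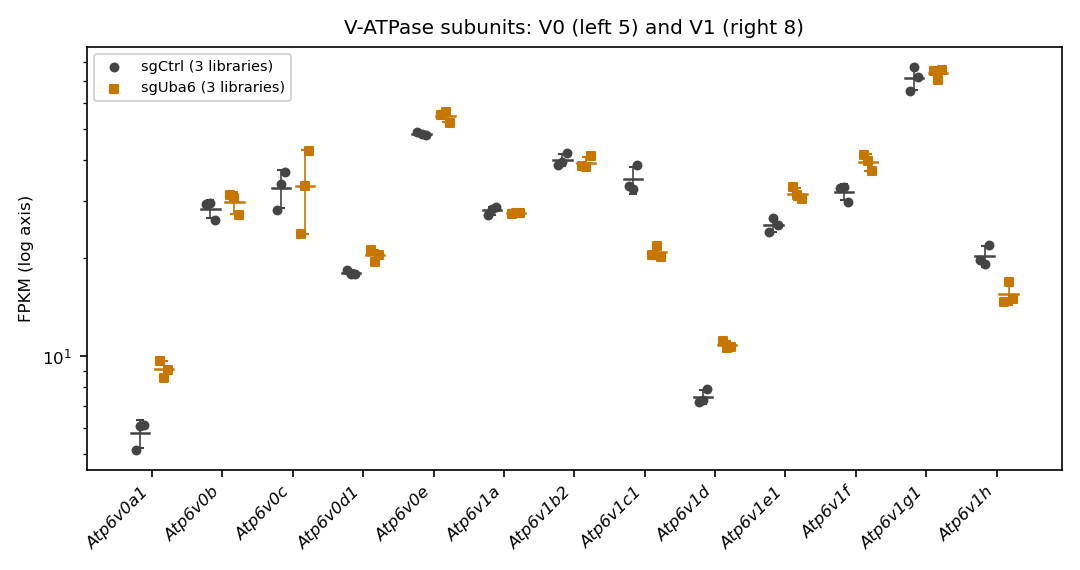
FPKM (log axis) of the 13 V-ATPase subunits in 3 sgCtrl libraries (grey circles) and 3 sgUba6 libraries (orange squares), with bars for the mean and SD, V0 on the left and V1 on the right. Atp6v0a1 and Atp6v1d rose, Atp6v1c1 and Atp6v1h fell, and the sgUba6 libraries of Atp6v0c spread from 23.7 to 42.8 FPKM.

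**Figure D5:**
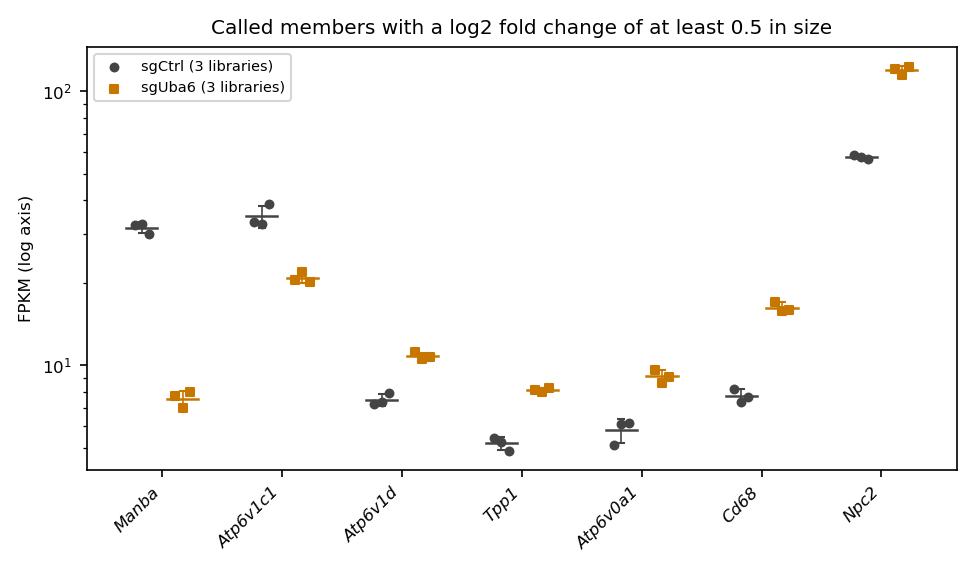
FPKM (log axis) per library of the 7 called genes with a log2 fold change of at least 0.5 in size, with bars for the mean and SD of 3 libraries per group. The groups do not overlap in any of the 7, and Manba goes down from 30.02 to 32.7 FPKM in sgCtrl to 6.98 to 7.96 FPKM in sgUba6.

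Other lysosomal genes were listed from the same pathway. Of 57 names, 51 were in the table and 43 were tested, with 15 higher and 5 lower, or 46.5%, against the background of 47.4%, and a median log2 fold change of 0.10. The difference from the list of 50 was not tested. One gene had a called change of at least 1 on the log2 scale. *Ctso*, cathepsin O, was at 1.254, 1.496 and 1.41 FPKM in sgCtrl and 3.71, 3.98 and 4.11 FPKM in sgUba6 libraries. Again no library overlapped between groups, and the log2 fold change was 1.23 (SE 0.09, limma adjusted p = 7.25e-05). Chosen after its values were seen, 1 further enzyme is given for context, from the 5 lower genes and not from the 15 higher ones. *Arsb*, a sulfatase of dermatan sulfate, had a log2 fold change of -0.78, with 17.1, 16.2 and 17.1 FPKM in sgCtrl and 9.78, 9.96 and 9.00 FPKM in sgUba6 libraries.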

How the data were processed

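RNA-seq of 3 sgCtrl and 3 sgUba6 libraries of 4T1 cells was analysed. The authors deposited FPKM per gene and library. The study's methods name Cutadapt, HISAT2, GRCm38, StringTie and Cuffdiff with a directional library kit, whereas the labels, per the authors, list a TruSeq kit, mm10 and the tools CASAVA 1.8, HISAT2, Trimmomatic, FastQC, edgeR and RSEM. Neither source says which of them made the deposited FPKM, so the strandedness of the counting is unknown. The deposited fold change (a ratio), p-value and q-value columns hold the authors' own comparison and were not used. The authors name DESeq2 for their own comparison. Since the deposited values are FPKM and not counts, limma 3.58.1 in R 4.3.3 (lmFit, eBayes with a trend) was run on log2(FPKM + 0.5), for genes at or above 0.5 FPKM in 3 or more libraries, with Benjamini-Hochberg adjustment over all 12190 genes and a threshold of 0.05. Depth is not known, and no counting interval is given.

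The 50 genes and all lists were chosen with earlier results of these data known. Genes given in full were called ones with a log2 fold change of at least 0.5 in size, those under the filter, *Tfeb*, *Tfe3*, *Mitf* and the most abundant gene of each role. From the other 2 lists, counts are given, with called genes of at least 1 in size. Coordinates are those of the table, identical to GENCODE M21 for 19235 of 19255 genes. Exon overlaps were taken from GENCODE M21 (16 of the 50 genes overlap another gene, 14 on the opposite strand), and shared sequence of at least 200 bases at 95% identity was searched with blastn 2.17.0 (10 genes). Promoters came from RefSeq. Tables were handled with pandas 2.3.3 in Python 3.11.15 and drawn with matplotlib 3.10.9. Alternatives tried were a constant of 0.1 or 1 in place of 0.5, a filter of 1 FPKM or none, scaling by median of ratios, quantile normalization, no trend, the replicate number as a block, and leaving out each library. The procedure was tested on simulated data. The values of 1 gene of the other lists are not reported here.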

Additional observations from a re-analysis of the deposited data

How the results depend on the processing

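Depth is not known from FPKM, so the counting error of low genes could not be given. Of the 30 called genes, 24 kept their call under all 14 alternatives, and none changed direction. The count of higher genes of the list was 17 to 20 and that of lower genes 8 to 10 under the alternatives of scaling, filter, constant and trend, and 16 to 19 and 8 to 9 when a library was left out. For the V-ATPase the counts were 5 to 6 higher and 2 lower throughout. Lower calls among the other lysosomal genes were 3 to 5 when a library was left out, with 3 without sgCtrl 2. They were 7 under quantile normalization, 6 under median-of-ratios scaling and 4 with the replicate block. Higher calls of that list were 15, 14 and 13 under these 3 settings, and 17 without a filter. With the replicate block there were 18 higher and 10 lower genes of the list, *Ctsa*, *Neu1* and *Mitf* losing and *Ctsh* gaining a call (adjusted p = 0.0301 from limma). Same-numbered libraries did not deviate together (correlations of 0.0156, -0.0567 and -0.0223), so the numbers were not taken as pairs. The log2 fold changes that changed sign were called under no setting except *Asah1* without sgUba6 2. Under quantile normalization they were -0.0128 for *Galns*, 0.0378 for *Lamp1*, 0.0237 for *Atp6v0c*, 0.0103 for *Atp6v1a* and 0.0143 for *Atp6v1b2*, and *Galns* was at -0.00316 under median-of-ratios scaling. With a library left out, they ranged from -0.110 to 0.0149 for *Gaa*, -0.0377 to 0.0329 for *Galns*, -0.0291 to 0.0373 for *Ppt1*, -0.0182 to 0.103 for *Atp6v1g1*, -0.213 to 0.207 for *Atp6v0c*, -0.0948 to 0.0482 for *Gla*, -0.0641 to 0.00422 for *Atp6v1b2* and -0.0416 to 0.228 for *Asah1*. The causes were not tested.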

Other observations

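The nearest tested protein-coding genes on each side of the 3 lysosomal genes with a called change of at least 2-fold were looked up. The look-up was made after those changes were seen. Genes that were not tested were passed over, so a listed gene can lie far away. On chromosome 3, next to *Manba*, *Cisd2* was at 14.4, 14.4 and 14.2 FPKM in sgCtrl and 7.47, 8.25 and 8.48 FPKM in sgUba6 libraries (log2 fold change -0.79), and *Nfkb1* was at 84.1, 87.5 and 84.1 against 46.4, 42.7 and 51.1 FPKM (log2 fold change -0.86). *Ppp3ca* had a log2 fold change of -0.15, but it starts only at position 136670124, whereas *Manba* ends at 135571404. *Ube2d3*, with a log2 fold change of -0.14, did not pass the test. Next to *Npc2*, *Abcd4*, *Isca2* and *Ltbp2* were called higher, with log2 fold changes of 0.79, 0.31 and 0.68, and *Lin52* at 0.23 did not pass. Next to *Cd68*, *Mpdu1* and *Sox15* were called higher at 0.36 and 0.57, *Eif4a1* was called lower at -0.26, and *Senp3* at 0.09 did not pass. How often neighbouring genes move together elsewhere was not tested.

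In the same libraries, *Epcam* was at 126, 141 and 104 FPKM in sgCtrl and 224, 234 and 230 FPKM in sgUba6 libraries. The fibroblast markers *Pdgfra* and *Col1a1* were both called higher, and the summed FPKM of 4 fibroblast markers was 2.96 to 3.19 in sgCtrl and 5.40 to 6.70 in sgUba6 libraries, most of it *Pdgfra* (2.69 ± 0.126 and 5.28 ± 0.575 FPKM, mean ± SD, n = 3 per group). *Col1a2*, not tested, was at 0.0912 and 0.0427 FPKM on average, with overlapping groups, and *Dcn* was at 0 in all but sgUba6 2. The part of these in the lysosomal values was not tested.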
